A study of Rattus norvegicus with 8 samples.

Results

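miR-221 and miR-222 are a pair of neighbouring microRNAs (miRNAs), and all their arms were followed here in rat bone marrow mesenchymal stem cells with and without dexamethasone. They were taken as every row of the deposited miRNA table named miR-221 or miR-222 with a 3p or 5p suffix, which gave 4 of 487 mature miRNAs. The members were rno-miR-221-3p, rno-miR-221-5p, rno-miR-222-3p and rno-miR-222-5p, written below without the species prefix rno. Their names and not their values chose them, but they were proposed for study with results of these data already known. A bone marrow mesenchymal stem cell is a stromal precursor that gives rise to osteoblasts, chondrocytes and adipocytes. The 4 control samples carried the treatment label Control, and the 4 treated samples had 48 h of dexamethasone at 10 µM. Dexamethasone is a synthetic glucocorticoid that binds the glucocorticoid receptor and is known for repressing transcription driven by NF-κB and AP-1. The labels used here give no strain, sex, age, passage or vehicle, and whether each replicate was its own culture is not stated. The p-values therefore describe the spread between these libraries, which may be technical.

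A miRNA is cut from a hairpin precursor as a duplex of a 5p and a 3p arm. One arm is usually kept by an Argonaute protein and directs it, mainly through the seed at bases 2 to 8, to messenger RNAs with matching sites. The 3p arms of miR-221 and miR-222 are the kept arms and are known, mostly from human cells, for repressing the cell cycle inhibitors Cdkn1b (p27) and Cdkn1c (p57) and the receptor Kit. They are known for promoting growth of vascular smooth muscle cells in rat and for restraining osteoblast formation. In human tumour cells their transcription is known to be driven by NF-κB and AP-1.

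The mature sequences, from RefSeq on the assembly GRCr8, are shown because the shared seed sets which counts can be added together. Capitals mark the seed, bases 2 to 8, and each is written 5′ to 3′.
miR-221-3p: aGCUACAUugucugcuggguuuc
miR-222-3p: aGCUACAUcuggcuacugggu
miR-221-5p: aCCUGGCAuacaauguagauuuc
miR-222-5p: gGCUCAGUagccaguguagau

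The 3p arms begin with the same 8 bases, AGCUACAU, and so have the same seed. In a global alignment they were identical at 18 of 24 columns, and after base 8 their longest common stretch was CUGGGU. No other miRNA of the table that could be matched to RefSeq, 443 of 487 names, had this seed or shared bases 2 to 7 with it. The 5p arms had different seeds, each found in no other matched miRNA.

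Both hairpins lie next to each other on the plus strand of chromosome X. The annotated long non-coding RNA loci LOC120099382 and LOC120099384 each contain both hairpins, and apart from these no annotated gene lies between the hairpins. The hairpins show how each 3p arm sits opposite its 5p arm, with the annotated mature arms in capitals.
Mir221: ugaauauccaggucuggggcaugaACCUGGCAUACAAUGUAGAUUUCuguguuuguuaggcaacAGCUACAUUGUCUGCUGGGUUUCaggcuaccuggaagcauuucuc
Mir222: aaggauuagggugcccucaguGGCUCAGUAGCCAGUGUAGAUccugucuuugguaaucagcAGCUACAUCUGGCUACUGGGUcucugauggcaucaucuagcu

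The libraries held 1835256 to 2639007 counts in control and 1377881 to 1521505 in dexamethasone samples, so every treated library was shallower and depth and treatment cannot be told apart. Marker miRNAs of the labelled cell type had a summed level of 133733 to 139400 CPM (counts per 1000000 counts of the library) in control and 143000.3 to 146488 CPM in treated samples for the 9 arms of miR-199a, miR-214, miR-143, miR-145 and miR-100. miR-199a-3p made up most of that sum, with a mean of 97394 CPM in control. Of the 8 tested arms 2 were called higher, both of miR-199a, and 3 lower, miR-143-3p, miR-143-5p and miR-100-5p. Over all tested miRNAs 24.9% were called higher and 21.2% lower. Markers of blood and epithelial cells were sparse. Their sums were 36.4 to 49.8 and 12.5 to 17.4 CPM in control and 51.8 to 68.2 and 10.9 to 22.3 CPM in treated samples, and 3 of 8 and 7 of 10 arms had at most 3 counts in any sample (miR-451-5p and miR-200c-3p among them). Among treated libraries, replicate 1 differed most from the rest, with a chi-square per degree of freedom of 37.0 to 48.6 against each of the others, where the other pairs lay between 7.56 and 20.5.

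miR-221-3p, the abundant member, was 1.93-fold lower after dexamethasone, while its seed partner miR-222-3p was 1.35-fold lower, which did not pass the test. In control replicates 1 to 4 miR-221-3p had 4831, 4597, 4517 and 4954 CPM, from 12748, 10797, 8290 and 11023 counts. In dexamethasone replicates 1 to 4 it had 1896, 2285, 2649.8 and 2802 CPM, from 2747, 3476, 3766 and 3861 counts. All 4 treated samples lay below all 4 controls, which held for 20.4% of the tested miRNAs, and the highest treated sample was well under the lowest control. Of the 487 miRNAs, 245 had enough counts to be tested, and edgeR's quasi-likelihood test gave miR-221-3p a log2 fold change of -0.95 ± 0.09 (SE, adjusted p = 7.20e-06). That was the 9th smallest p of the 245 and the 12th largest fall among the 52 miRNAs called lower. Counting error was 0.974% of the mean in control and 1.70% in treated samples, against a spread between replicates of 4.29% and 16.8% (coefficient of variation, n = 4), so replicate spread and not depth set the precision. By mean CPM miR-221-3p stood 22nd of 487 in control and 28th in treated samples. These are bulk RNA counts, in which fewer cells of a type and less of the miRNA per cell cannot be told apart.

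**Figure D1:**
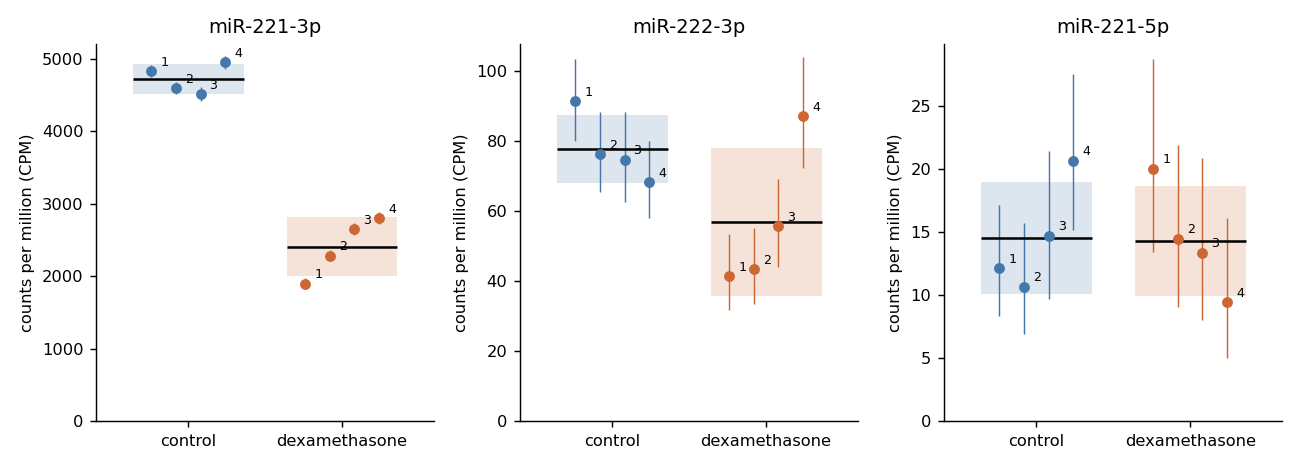
Level of miR-221-3p, miR-222-3p and miR-221-5p in CPM (vertical axes, each from 0) in the 4 control and 4 dexamethasone samples. Points are samples with replicate numbers and exact 95% Poisson intervals, black lines are group means and shaded bands are 1 SD; the treated samples of miR-221-3p, 1896 to 2802 CPM, all lie below the controls, while the other arms overlap between groups.

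miR-222-3p was far less abundant in counts. Its control values were 91.3, 76.2, 74.6 and 68.3 CPM in replicates 1 to 4, from 241, 179, 137 and 152 counts. Its dexamethasone values were 41.4, 43.4, 55.6 and 87.1 CPM, from 60, 66, 79 and 120 counts. Replicates 1 to 3 of the treated group lay below every control, and replicate 4 lay above all controls but replicate 1, so the groups overlapped. The log2 fold change was -0.44 ± 0.20 (SE, edgeR adjusted p = 0.0929), which missed the threshold of 0.05. The authors' deposited table lists miR-222-3p with a log2 fold change of -0.44 and an adjusted p of 0.0111 (the sources used here do not name its test), and miR-221-3p with -0.97 and 1.88e-39. Without dexamethasone replicate 4 the log2 fold change of miR-222-3p was -0.68 ± 0.15 (SE, edgeR adjusted p = 0.00228). Without dexamethasone replicate 1, 2 or 3 it was -0.33, -0.35 or -0.44 and missed the threshold (edgeR adjusted p = 0.175, 0.175 and 0.112). Replicate 4 was the treated sample with the highest miR-221-3p as well, but there the value stayed below the controls. Counting error was 11.1% of the treated mean and the spread between treated replicates 37.1%.

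The 5p arms were scarce, and neither was called. miR-221-5p, the arm usually discarded, had 12.1, 10.6, 14.7 and 20.7 CPM in control replicates 1 to 4, from 32, 25, 27 and 46 counts. In dexamethasone replicates 1 to 4 it had 20.0, 14.5, 13.4 and 9.43 CPM, from 29, 22, 19 and 13 counts. The groups overlapped throughout. The log2 fold change was 0.02 ± 0.28 (SE, edgeR adjusted p = 0.955), and its sign depended on the scaling, being -0.13 with upper quartile scaling. With this error, changes well short of that of miR-221-3p could not be detected. Counting error was 17.7% of the mean in control and 22.0% in treated samples, against a spread between replicates of 30.4% and 30.5%. miR-222-5p did not pass the abundance filter and was not tested. It had 0, 0, 5 and 1 counts in control and 0, 1, 0 and 0 counts in dexamethasone replicates 1 to 4. For a count of 0 the one-sided 95% Poisson limit is about 3 counts, which correspond to 1.14 to 2.18 CPM.

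In all, 3 of the 4 members were tested, 1 was called lower and 0 higher. Of all tested miRNAs 46.1% were called, 21.2% lower and 24.9% higher, so the count of calls among the members does not set them apart. A fall of at least 1.5-fold that passed the test, as in miR-221-3p, was found in 12.7%. The balance of calls moved with the scaling: 61 were higher and 52 lower with TMM, and 41 higher and 71 lower with upper quartile scaling, which shifted the median log2 fold change of all miRNAs by -0.15. miR-221-3p was at -1.10 under that scaling.

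**Figure D2:**
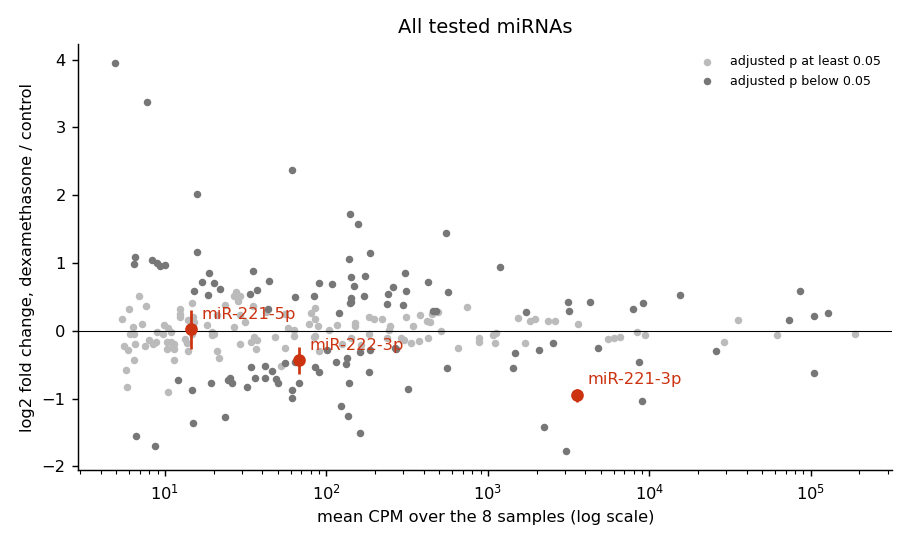
Log2 fold change (vertical axis, dexamethasone over control) against mean CPM over the 8 samples (horizontal log axis) for the 245 tested miRNAs, dark where the edgeR adjusted p was below 0.05. The tested members are in red with their SE; miR-221-3p at -0.95 lies among the strongest falls of abundant miRNAs and miR-221-5p at 0.02 on the zero line.

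Because the 3p arms share a seed, their CPM were added as a pool of reads with that seed. The pool was 4922, 4673, 4592 and 5023 CPM in control replicates 1 to 4 and 1937, 2328, 2705 and 2889 CPM in dexamethasone replicates 1 to 4. No treated sample reached the lowest control. The mean went from 4802 ± 203 to 2465 ± 422 CPM (SD, n = 4), 1.95-fold lower (p = 0.0286 by an exact two-sided permutation test, the lowest value possible with 70 assignments, and 0.0429 adjusted over the 3 single values tested). miR-221-3p made up nearly all of the pool, so this test repeats that of miR-221-3p. The counts are of reads, and libraries do not take up every miRNA equally well, so the pool does not give numbers of molecules.

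The share of miR-222-3p in the pool tests whether the 3p arms changed by different amounts, and it does not depend on library scaling. In control replicates 1 to 4 the share was 1.86, 1.63, 1.63 and 1.36%. In dexamethasone replicates 1 to 4 it was 2.14, 1.86, 2.05 and 3.01%. Every treated sample lay above every control, but dexamethasone replicate 2 and control replicate 1 were almost level, at 1.863% (exact binomial 95% interval 1.44 to 2.36%) and 1.855% (1.63 to 2.10%). The mean rose from 1.62 ± 0.203% to 2.27 ± 0.511% (SD, n = 4, exact two-sided permutation p = 0.0286, 0.0429 adjusted over the 3 values). The 3 values include the summed level, whose test repeats that of miR-221-3p, so the adjusted value may be too low. It does not settle whether the 3p arms differ. Put as a ratio of counts, there were 61.6 ± 8.12 reads of miR-221-3p for each of miR-222-3p in control samples, and 44.6 ± 8.76 after dexamethasone (SD, n = 4). The difference in share was 0.649 percentage points over all samples and 0.400 without dexamethasone replicate 4. Within dexamethasone replicates 1 to 3 alone the shares were 1.86 to 2.14%, against 1.36 to 1.86% in control. The intervals cover counting error only, since reads without molecular identifiers are not independent molecules.

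The ratio of the arms of miR-221 was compared in the same way. miR-221-5p was 0.250, 0.231, 0.325 and 0.416% of the reads of both arms in control replicates 1 to 4. It was 1.04, 0.629, 0.502 and 0.336% in dexamethasone replicates 1 to 4. In 3 treated samples the share lay above all controls, and in dexamethasone replicate 4 it lay within the control range. On a log2 scale, with 0.5 added to each count, the ratio of 5p to 3p went from -8.37 ± 0.38 to -7.39 ± 0.68 (SD, n = 4). The difference of 0.98 missed the threshold (exact two-sided permutation p = 0.0571, also 0.0571 adjusted over the 3 values). Among the 53 hairpins with both arms tested, that was the largest shift towards 5p, where the median shift was 0.11, the middle range was -0.21 to 0.32 and the extremes were -1.51 and 0.98. The 13 to 46 counts of miR-221-5p per sample limit this ratio, and dexamethasone replicate 1 had the highest 5p and the lowest 3p of the treated samples. Without that replicate the difference was 0.69.

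**Figure D3:**
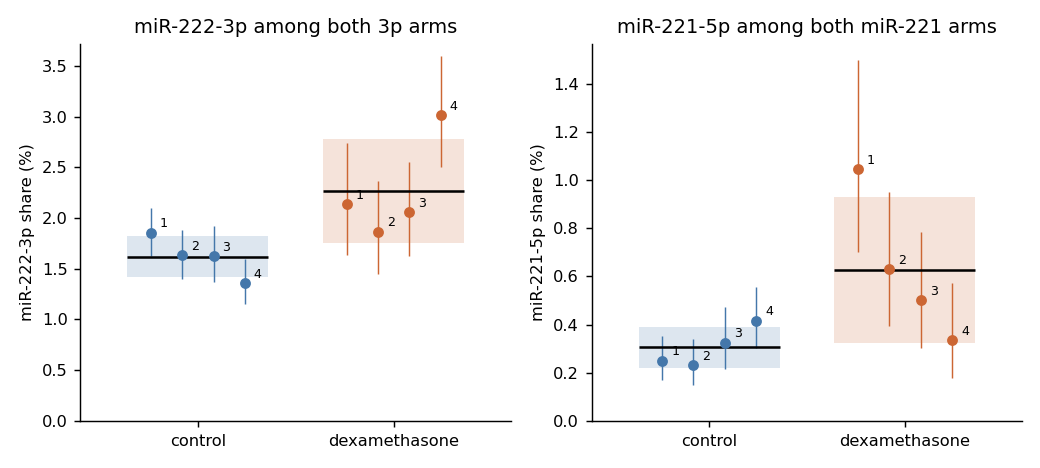
Share of miR-222-3p among reads of both 3p arms (left) and of miR-221-5p among reads of both miR-221 arms (right), in percent from 0, per sample with exact 95% binomial intervals, group means (black) and 1 SD (shaded). On the left the treated samples, 1.86 to 3.01%, lie above the controls, 1.36 to 1.86%, with the nearest samples almost level; on the right dexamethasone replicate 4, at 0.336%, lies among the controls.

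The miRNAs with profiles most like that of miR-221-3p were sought among tested miRNAs averaging 10 CPM or more, and 215 miRNAs were compared. Likeness was the root mean square difference over the 8 samples of log2(CPM + 1) minus the control mean. The nearest 5 were miR-708-5p (difference 0.12), miR-449a-5p (0.13), miR-212-5p (0.14), miR-31a-5p (0.19) and miR-22-5p (0.21). miR-449a belongs to the p53-linked miR-34 family, miR-212 is a CREB-responsive miRNA, and miR-31a is known for targeting the osteoblast factor Sp7 in human cells. All of them were called lower by edgeR, with log2 fold changes of -0.86 ± 0.09, -0.99 ± 0.11, -1.11 ± 0.14, -1.04 ± 0.06 and -0.77 ± 0.14 in that order (SE, adjusted p between 5.06e-08 and 7.87e-04). miR-222-3p, the neighbour and seed partner, came 35th, with a difference of 0.41. The profile of miR-222-3p was nearest to those of miR-296-5p (0.20), miR-184 (0.21), miR-129-5p (0.22), miR-125b-1-3p (0.22) and miR-125a-3p (0.23), and miR-221-3p came 57th. Of these, miR-296-5p, miR-129-5p and miR-125a-3p were called lower (edgeR adjusted p = 0.0168, 0.00300 and 0.0214), and miR-184 and miR-125b-1-3p were not (0.188 and 0.243). The profiles share the same 8 libraries, and nearness to a profile that falls already favours miRNAs that fall. The calls of these miRNAs largely follow from how they were picked, and are given as a description.

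**Figure D4:**
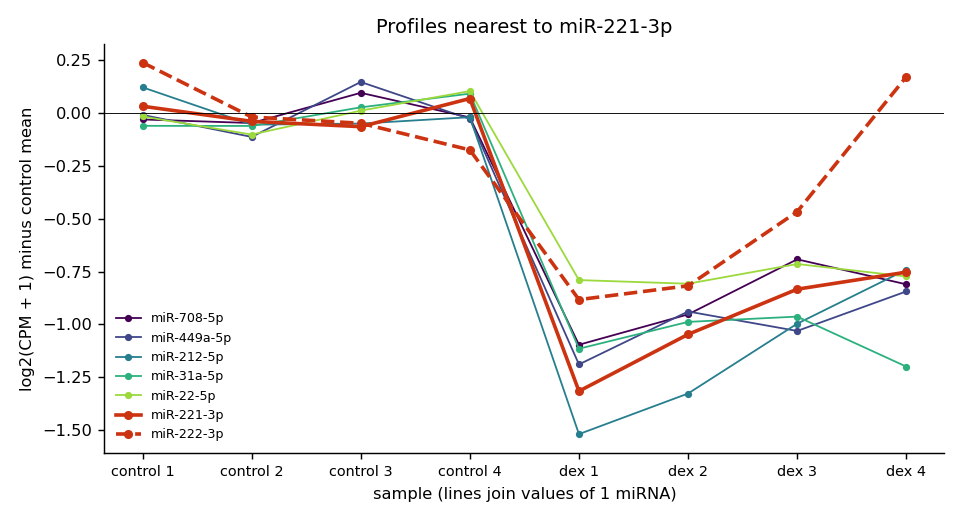
Log2(CPM + 1) minus the control mean (vertical axis) in each of the 8 samples for miR-221-3p (solid red), its 5 nearest miRNAs and miR-222-3p (dashed red). Lines only join the values of 1 miRNA and give no order of samples; miR-222-3p follows the others less closely, and its value in dexamethasone replicate 4 lies above 0.

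miRNAs known for repressing the cyclin-dependent kinase inhibitors p27, p57 or p21, largely from human cells, mostly stayed short of the threshold. Of 20 tested arms, the 3 tested members included, 0 were called higher and 5 lower, where over all tested miRNAs 24.9% were higher and 21.2% lower. Without the members 0 of 17 were higher and 4 lower, with a median log2 fold change of -0.022 against 0.0049 over all tested. Beside miR-221-3p the calls were miR-196a-5p (-0.45 ± 0.06), miR-196b-5p (-0.18 ± 0.06), miR-148a-5p (-1.26 ± 0.13) and miR-181a-1-3p (-0.77 ± 0.16), as log2 fold changes with SE (adjusted p by edgeR between 1.03e-05 and 0.0268). The last pair are the lesser arms of their hairpins and are not the arms known for this role. The abundant miR-152-3p was at -0.02 ± 0.07 (edgeR adjusted p = 0.807). Without dexamethasone replicate 1 or 4, 2 arms were called higher.

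miRNAs known for transcription driven by NF-κB or AP-1 held calls in both directions. Of 9 tested arms, the 3 members included, 2 were higher and 3 lower, beside 24.9% and 21.2% over all tested miRNAs. Without the members 2 of 6 were higher and 2 lower, with a median log2 fold change of 0.15. miR-146a-5p, which restrains Toll-like receptor signalling, was called lower at -1.77 ± 0.06, and miR-146b-5p at -0.33 ± 0.12, beside miR-221-3p. miR-21-5p was called higher at 0.58 ± 0.06 and miR-155-5p at 0.30 ± 0.07 (log2 fold changes with SE; adjusted p of these 4 by edgeR between 4.63e-10 and 0.0343). With upper quartile scaling 1 of the arms was higher.

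Among miRNAs known for restraining osteoblast formation, 4 of 10 tested arms were lower and 1 higher, beside 21.2% and 24.9% over all tested miRNAs. One of the lower arms was miR-221-3p, and without the members 3 of 7 were lower and 1 higher, with a median log2 fold change of -0.52. miR-31a-5p was called lower, with 12119 ± 629 CPM in control and 5794 ± 442 CPM after dexamethasone (SD, n = 4, log2 fold change -1.04). miR-211-5p, of the Runx2-targeting family, was called lower at -1.70 ± 0.40, and miR-31a-3p at -0.88 ± 0.17 (SE, edgeR adjusted p = 0.00470 and 0.00105). miR-31a-3p is the lesser arm of the miR-31a hairpin. miR-211-5p was scarce, at 13.3 ± 2.47 CPM in control and 4.01 ± 3.22 CPM after dexamethasone (SD, n = 4). miR-204-5p, of the same family, was too scarce to be tested. Its mean went the other way, from 1.82 CPM in control to 5.42 CPM after dexamethasone. The most abundant arm, miR-125b-5p, was called higher at 0.26 ± 0.06 (SE, edgeR adjusted p = 0.00329). The counts were 0 higher and 7 lower with upper quartile scaling. Without dexamethasone replicate 4 there were 7 lower, and without dexamethasone replicate 1 there were 2 higher.

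Of miRNAs known for promoting growth of vascular smooth muscle, all of which are in the lists above, 4 of 8 tested arms were lower and 1 higher, and 3 of 5 were lower without the members, beside 21.2% lower and 24.9% higher over all tested miRNAs. The lower ones were miR-221-3p, miR-31a-5p, miR-31a-3p and miR-146a-5p, the higher one miR-21-5p. miR-31a-3p is the lesser arm of its hairpin, with 0.658% of the counts of both arms in control. Both miR-31a calls therefore come from the same hairpin. Of those linked to the contractile state, 2 of 5 were lower and 1 higher. Both arms of miR-143 were the lower ones, at -0.30 ± 0.07 for miR-143-3p and -0.59 ± 0.15 for miR-143-5p (SE, edgeR adjusted p = 0.00525 and 0.00585), and miR-1b was the higher one. Without any 1 control replicate or dexamethasone replicate 2, 2 arms of this list were higher.

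Some markers of other cells were also called, where over all tested miRNAs 24.9% were higher and 21.2% lower. Each list held too few tested arms to be set against those shares. Endothelial cells are known for high miR-221 and miR-222, and both arms of the endothelial miR-126a fell, with summed levels of 1790 to 2000.3 CPM in control and 1163 to 1331 CPM in treated samples, 2 of 2 arms called lower (edgeR adjusted p = 3.54e-05 and 0.0119) and none at 0. The log2 fold change of miR-126a-3p was -0.55 ± 0.07 (SE). Skeletal muscle markers had 73.7 to 103 CPM in control and 236 to 331 CPM in treated samples, with 2 of 2 tested arms higher. The blood cell miRNA miR-142-3p was called higher, with a log2 fold change of 0.54 ± 0.13 (SE, adjusted p = 0.00479 by edgeR), 1 of 2 tested arms of its list, and of the epithelial list 0 of 1 was called. Neural markers overlapped between groups, at 460.4 to 514 CPM in control and 452 to 533 CPM in treated samples, and 1 of 3 tested arms was lower. The part of such cells in the fall of miR-221-3p was not tested.

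By chromosome, a grouping added after the values were seen, miR-221-3p stood apart in direction from the called miRNAs of its own chromosome. Of 222 tested miRNAs that matched RefSeq, 30 were annotated to chromosome X alone. Of these 16 were called higher and 1 lower, the lower one being miR-221-3p, and their median log2 fold change was 0.51. Over all 222 matched miRNAs 56 were higher and 50 lower, with a median of -0.0034. Many of the 16 come from shared clusters, such as that of miR-322 and miR-503, and so are not independent of each other. Across the alternative fits 13 to 17 were higher and 1 to 3 lower; 3 were lower with upper quartile scaling, and 2 with DESeq2, with no filter and without control replicate 4 or dexamethasone replicate 4.

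The fall of miR-221-3p was called in each of the 17 alternative fits, with log2 fold changes between -1.10 and -0.87 and adjusted p-values of at most 7.33e-05. After thinning every library to 1377881 counts, which makes the totals equal and nothing else, it was -0.93. Leaving out dexamethasone replicate 1, the sample with the lowest value, gave -0.87 ± 0.07 (SE, edgeR adjusted p = 6.15e-08). For miR-222-3p the log2 fold change was below 0 in all 17, between -0.68 and -0.33, and passed in 5.

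**Figure D5:**
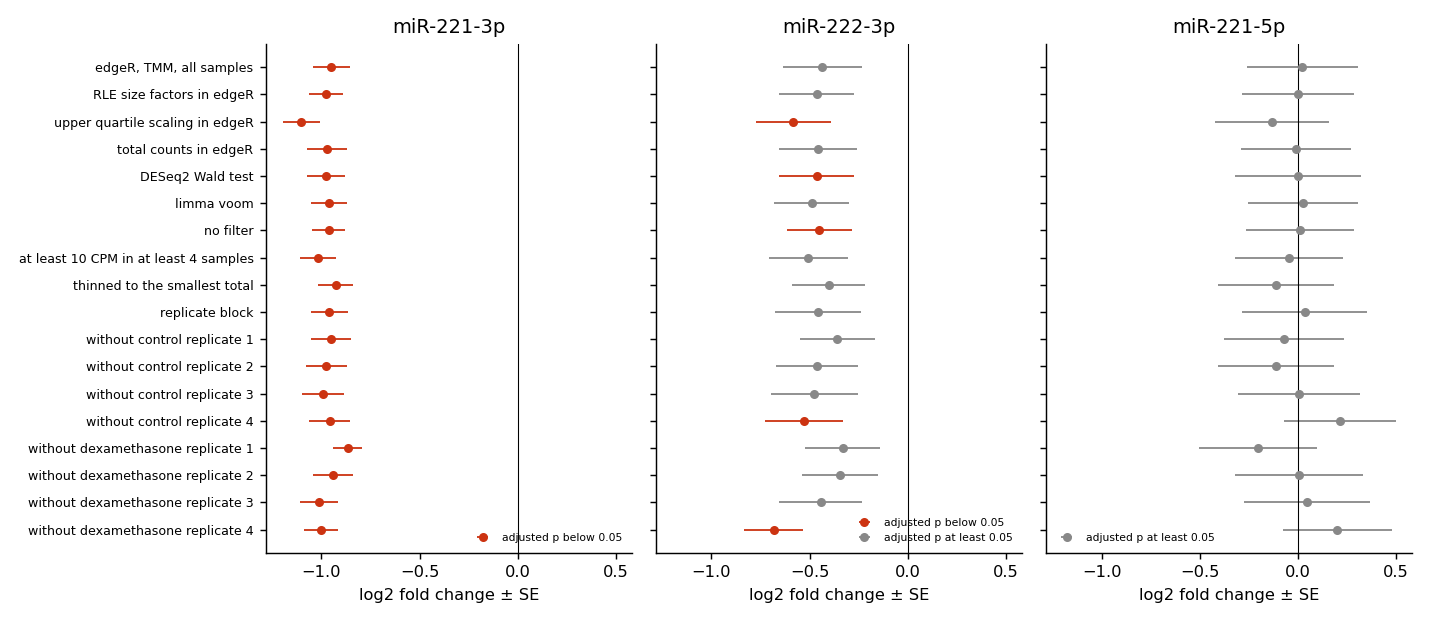
Log2 fold change ± SE (horizontal axis, dexamethasone over control) of the tested members in the fit used and in the 17 alternative fits, red where the adjusted p was below 0.05. miR-221-3p stays between -1.10 and -0.87 and is red throughout, miR-222-3p is red in 5 alternatives, and miR-221-5p lies on either side of 0.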

How the data were processed

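Libraries were miRNA sequencing of 8 rat samples, grouped by sample title. Per the labels' protocols, a Qiagen miRNA kit yielded the RNA and a VAHTS total RNA kit the libraries. Per the submitters' processing notes, Bowtie 1.0 and mRatBN7.2 were used; the sources used here do not name the counter, the annotation release or the handling of reads shared between miRNAs. Whole-number counts for 487 miRNAs make up the deposited table, with CPM columns by the authors that equal count over column total to within 4.98e-05. Per the file headers it also holds a log2 fold change and p-values with an adjusted p-value, by a test the sources used here do not name.

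The quasi-likelihood test of edgeR 4.0.16 (R 4.3.3) was run on the counts with group as sole term, after filterByExpr and TMM, with Benjamini-Hochberg adjustment over 245 tested miRNAs and a threshold of 0.05. The SE is the log2 fold change over the square root of F. Single values used exact permutation tests over 70 assignments in Python 3.11.15. Alternatives included DESeq2 1.42.0 and limma 3.58.1 voom. Sequences came from RefSeq (GRCr8, not the files' build, so no coordinates are given). Named miRNAs were the members, the 5 nearest profiles of each 3p arm and, per list, the called and most abundant tested arms. Members, lists and rules were chosen with earlier results of these data known, and lists were described by counts without a test. Chi-square per degree of freedom between replicates was 7.56 to 48.6, so no pair differed by counting noise alone. This does not show whether replicates were separate cultures.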

Additional observations from a re-analysis of the deposited data

How the results depend on the processing

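Each result was recomputed under every alternative planned for it. miR-221-3p kept its direction and its call in all 17. miR-222-3p was not called in the main fit, with all samples, TMM and the abundance filter. It was called with upper quartile scaling in edgeR (-0.58, adjusted p = 0.0200), DESeq2 (-0.46, 0.0358) and, in edgeR under TMM, no filter (-0.45, 0.0466). Leaving out 1 sample at a time gave -0.68 to -0.33, passing without control replicate 4 or dexamethasone replicate 4. The cause was not tested. miR-221-5p, at 0.02, changed sign without passing any test with upper quartile scaling (-0.13), total counts (-0.0083), a filter of 10 CPM in 4 samples (-0.044) and thinning (-0.11), and ran from -0.20 to 0.21 with 1 sample left out. With 1 sample left out the summed 3p level differed by -2479 to -2162 CPM, the miR-222-3p share by 0.400 to 0.784 percentage points and the log2 arm ratio by 0.69 to 1.23, given as values with no test. Over all alternatives 41 to 70 miRNAs were higher and 44 to 71 lower. Same-numbered samples did not deviate together (correlations -0.21 to 0.08), which cannot show that cultures were unpaired. The labels used here do not state a pairing, so the main fit had no replicate term. With a replicate block in edgeR miR-221-3p was at -0.96 (adjusted p = 7.33e-05), miR-222-3p at -0.46 (0.123) and miR-221-5p at 0.03 (0.944). Under that block 52 miRNAs were higher and 45 lower. Depth limits miR-221-5p and miR-222-5p most.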
